A study of Homo sapiens with 6 samples.

Results

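CREB3L2 and 9 further genes of the stress sensors of the endoplasmic reticulum (ER) membrane, 10 of the 20263 genes in the count table, were followed across 6 RNA-seq libraries of MV4-11 cells. They were the transcription factors CREB3, CREB3L1, CREB3L2 and CREB3L4, both forms of ATF6 (ATF6 and ATF6B), the IRE1 kinase gene ERN1, its substrate XBP1, and the proteases MBTPS1 (site-1) and MBTPS2 (site-2). The set was taken by symbol, and CREB3L2 was picked by its low level with the drug combination. Its values in comparisons with the combination are therefore a description without a test, while the other members and the comparison of the single drugs were tested.

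MV4-11 is a human acute myeloid leukemia line with an internal tandem duplication of FLT3, and its genotype is labelled WT. All 3 groups carried drug for 24 h: venetoclax with cyclosporine A (VEN+CSA), whose separate doses the labels do not state, venetoclax alone at 100 nM (VEN), and cyclosporine A alone at 2.5 µM (CSA). Venetoclax blocks the survival protein BCL2, and cyclosporine A binds cyclophilins and blocks calcineurin. Each group had 2 libraries, no untreated library was used here, and the treatment tag is the same for all 6, so groups were read from the titles. The labels do not say whether replicates came from separate cultures. The p-values therefore rest on differences among libraries that may be technical.

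CREB3 family proteins are made as precursors held in the ER membrane by a single helix. When they leave for the Golgi, the site-1 and then the site-2 protease cut them, and the freed part enters the nucleus and binds DNA. ATF6 is activated by the same cuts when unfolded proteins accumulate. IRE1 spans the same membrane, and its ribonuclease domain removes a short intron from XBP1 mRNA, so that a potent activator of chaperone and secretion genes is made. PERK, the remaining sensor, acts on translation. A count per gene reads the amount of each mRNA and neither the cuts nor the splicing.

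Promoter sequence is shown for CREB3L2, the member whose level moved, and for XBP1, the most abundant member per length in every group. RefSeq windows (GRCh38.p14) from 250 bases before to 50 bases after a start site were available for 10 of 10 members. They were searched on both strands for TGACGTCA, the cyclic AMP response element (CRE) bound by CREB-type factors, TGACGTG, the core of the unfolded protein response element, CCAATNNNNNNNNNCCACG, the ER stress response element (ERSE) bound by ATF6, and CCAAT, which is also part of the ERSE. The printed stretches are the 250 bases before the start, on the minus strand, at chr7:138002087-138002336 for CREB3L2 and chr22:28800570-28800819 for XBP1, with matches to these motifs in capitals.
CREB3L2: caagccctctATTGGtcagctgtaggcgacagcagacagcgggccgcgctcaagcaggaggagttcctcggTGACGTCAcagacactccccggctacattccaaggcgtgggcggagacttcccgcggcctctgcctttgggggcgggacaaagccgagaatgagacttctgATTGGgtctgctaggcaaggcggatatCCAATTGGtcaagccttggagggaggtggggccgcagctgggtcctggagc
XBP1: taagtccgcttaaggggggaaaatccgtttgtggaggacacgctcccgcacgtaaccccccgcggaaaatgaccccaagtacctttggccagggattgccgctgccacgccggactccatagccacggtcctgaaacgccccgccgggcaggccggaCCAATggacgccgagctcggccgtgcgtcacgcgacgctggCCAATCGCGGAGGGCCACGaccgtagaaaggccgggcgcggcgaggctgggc

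CREB3L2 held 1 CRE, whose first base lies 179 bases before the start, and 4 CCAAT boxes, a pair of which share bases in CCAATTGG. XBP1 held 1 ERSE, from 52 to 34 bases before the start, and a further CCAAT box. A CRE was present in 2.26% of 22199 windows of protein-coding genes, an ERSE in 0.104%, the TGACGTG core in 2.12% and a CCAAT box in 34.7%. CCAAT boxes also stood in the windows of ATF6B and ERN1, 1 each. No other member's window held a CRE or an ERSE, and no member's window held the TGACGTG core. A second RefSeq start of CREB3L2, inside the gene, held none of the motifs. These matches describe letters and not binding. On the opposite strand AKR1D1, a steroid reductase gene, starts at base 138002324 within the CREB3L2 window, and it had 0 counts in all 6 libraries.

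The GENCODE 29 transcripts of XBP1 include 4 that hold a block of 26 bases and 2 that lack it, the difference that IRE1 makes. The block is shown in capitals between its flanks, and its ends can slide by up to 6 bases because the flanks repeat.
XBP1 block: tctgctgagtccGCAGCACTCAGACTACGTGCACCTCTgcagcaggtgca
Both forms enter the same count here, so XBP1 values below are totals over them.

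Total counts were 26567900 to 30738957 per library. All 10 markers of the MV4-11 lineage fixed for this check, among them FLT3, CD33 and SPI1, were at 1 CPM (a count scaled to library size) or more in every library, with sums of 2395 to 2455 CPM with VEN+CSA, 2248 to 2733 with VEN and 2681 to 2687 with CSA. The summed markers of B, T, erythroid, epithelial and fibroblast cells reached at most 5.16 CPM in any library, and CD3D, HBB, EPCAM and LUM were at 0 in all 6. VEN replicate 2 stood apart: its share of counts on mitochondrial genes was 41.5%, where the others had 7.41% to 15.2%, and the VEN replicates differed from each other with an SD of 0.83 on the log2 scale, where the SD was 0.52 for VEN+CSA and 0.46 for CSA. CPM values are scaled by the trimmed mean of M-values (TMM), and results that rest on VEN replicate 2 are also given without it. In bulk RNA, fewer cells with a transcript and less of it per cell cannot be told apart.

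CREB3L2 (ENSG00000182158, chr7:137874979-138002067, minus strand, hg38) encodes an ER-bound basic leucine zipper factor that in mouse cartilage drives secretory genes. It was at 26.3 and 26.6 CPM with VEN+CSA, against 119.6 and 105 CPM with VEN and 122 and 136 CPM with CSA. Both combination libraries lay far below all 4 single-drug libraries and differed from each other by −0.01 on the log2 scale (replicate 1 minus replicate 2). The raw counts behind these levels were 878 and 731 with VEN+CSA, 3530 and 1980 with VEN, and 3694 and 4531 with CSA.

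Averages of CREB3L2 were 4.25-fold lower with VEN+CSA than with VEN (log2 fold change −2.09, SE 0.16) and 4.88-fold lower than with CSA (−2.29, SE 0.16). These SEs take no account of the choice of the gene by its level there, and no test is read from them. Of 12690 genes tested, 55 had a lower log2 fold change against VEN and 23 against CSA; among genes with a mean of at least 5 CPM these were 20 and 4. Both comparisons share the VEN+CSA libraries. Without VEN replicate 2 the value against VEN was −2.17. A ratio within a library needs no scaling: CREB3L2 counts were 0.298 and 0.289 per ATF6 count with VEN+CSA, 1.499 and 1.03 with VEN, and 1.48 and 1.62 with CSA. Per MBTPS1 count the ratios were 0.296 and 0.318 with VEN+CSA, 1.49 and 1.29 with VEN, and 1.502 and 1.68 with CSA.

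Between the single drugs, which the choice of the gene did not use, CREB3L2 averaged 112 CPM with VEN and 129 CPM with CSA, a log2 fold change of −0.20 (SE 0.16, 95% interval −0.58 to 0.18) with an adjusted p of 0.634 in edgeR's quasi-likelihood test. Both VEN libraries were below both CSA libraries, as 19.9% of all genes tested were. The value was −0.11 without VEN replicate 2, −0.30 without VEN replicate 1 and −0.49 with library size alone as scaling.

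**Figure D1:**
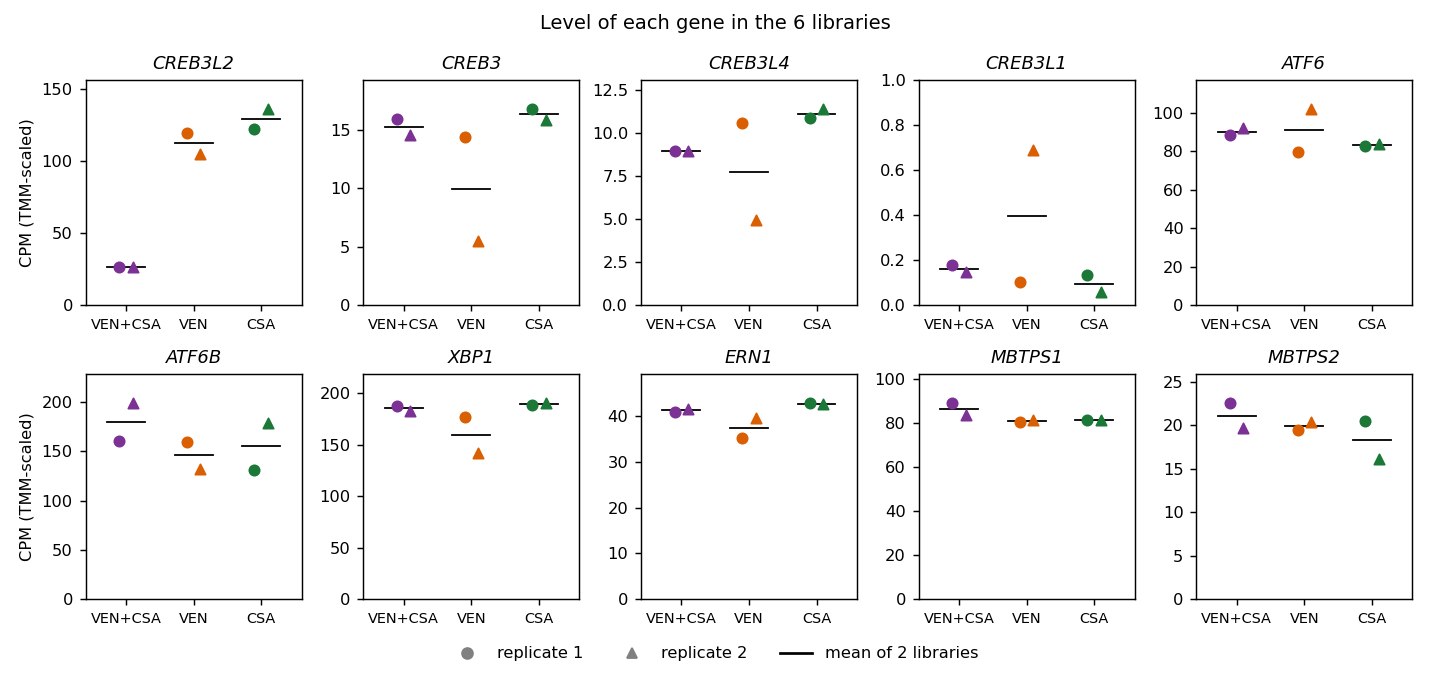
Level of the 10 genes in CPM (TMM-scaled, axes from 0) by group, with replicate 1 as circles, replicate 2 as triangles and the mean of 2 libraries as a bar. CREB3L2 is at 26.3 and 26.6 CPM with VEN+CSA and above 100 CPM in the other 4 libraries, and VEN replicate 2 alone is low for CREB3 and CREB3L4.

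Among the relatives of CREB3L2, CREB3 (chr9:35732335-35737004), the founding member of the family, was at 15.9 and 14.5 CPM with VEN+CSA, 14.3 and 5.46 CPM with VEN, and 16.8 and 15.8 CPM with CSA. Only VEN replicate 2 was low. Its log2 fold change with VEN+CSA was 0.61 against VEN (SE 0.44, adjusted p = 0.623 by edgeR) and −0.10 against CSA (SE 0.43). Without VEN replicate 2 the value against VEN was 0.09, and without VEN replicate 1 it was 1.48 with adjusted p = 0.0147, in a fit that called 26.4% of all genes.

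CREB3L4 (chr1:153967534-153974363), known for expression in prostate and other secretory epithelia, was at 8.97 and 8.94 CPM with VEN+CSA, 10.6 and 4.93 CPM with VEN, and 10.9 and 11.4 CPM with CSA. The combination lay between the VEN libraries and below both CSA libraries (log2 fold change −0.31, SE 0.36, adjusted p = 0.9999 by edgeR against CSA). Against VEN the value was 0.20 (SE 0.36), turned to −0.23 without VEN replicate 2, and was 0.86 with adjusted p = 0.0298 without VEN replicate 1. CREB3L1 (chr11:46277661-46321422), which acts in bone collagen secretion in mice, had 6 and 4 counts with VEN+CSA, 3 and 13 with VEN, and 4 and 2 with CSA. It was the only member that did not pass the filter on low counts, so 9 of 10 were tested. CREB3 overlaps TLN1 and GBA2 on the opposite strand, and CREB3L4 overlaps SLC39A1 and JTB. The sources used here do not state whether the counting used strand, so reads from these overlaps cannot be told apart. ATF6B and MBTPS2 overlap genes on their own strand, TNXB and YY2, which had at most 19 and 76 counts in a library. CREB3L3, the liver form of the family, had 2 counts in 1 library and 0 in the other 5.

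Per length, the 4 family members summed to 14.5 and 13.8 RPKM (CPM per kilobase of annotated exons) with VEN+CSA, 24.8 and 16.7 RPKM with VEN, and 26.5 and 27.7 RPKM with CSA. CREB3L2 made up 20.7% and 21.9% of this sum with VEN+CSA, 54.9% and 71.6% with VEN, and 52.5% and 55.8% with CSA. The low share with VEN+CSA restates the level by which CREB3L2 was picked. Per length, CREB3 was the most abundant of the family with VEN+CSA, at 57.7% and 55.4%. It came behind CREB3L2 in all 4 single-drug libraries, at 30.4% and 17.2% with VEN and 33.3% and 30.0% with CSA. The order with VEN+CSA rests on the division by exon length (1903 bases for CREB3, 8788 for CREB3L2). In CPM, CREB3L2 was above CREB3 there too, at 26.3 and 26.6 against 15.9 and 14.5.

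**Figure D2:**
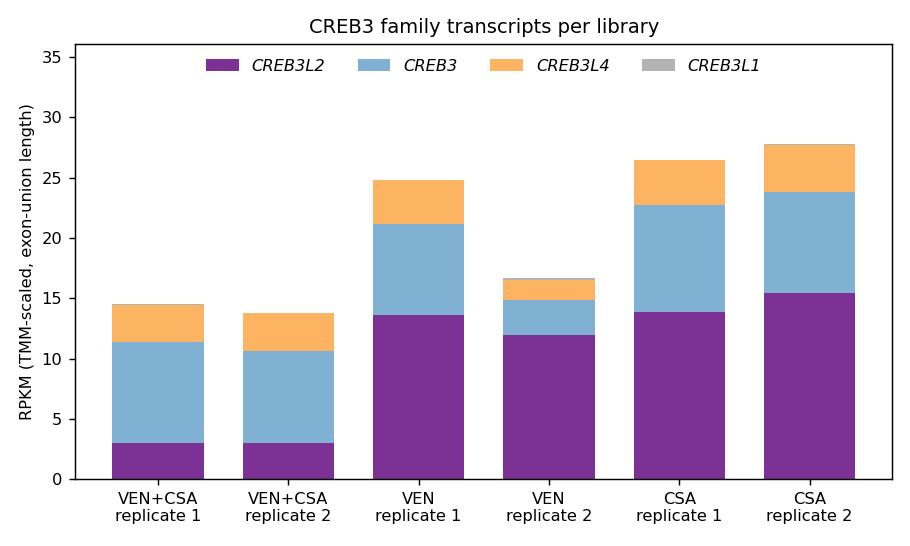
Stacked RPKM of CREB3L2, CREB3, CREB3L4 and CREB3L1 in each library. The CREB3L2 segment is 3.00 and 3.02 RPKM with VEN+CSA, 13.6 and 11.9 RPKM with VEN and 13.9 and 15.5 RPKM with CSA, while CREB3L1 is too low to see in most bars.

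ATF6 (chr1:161766294-161964070), the sensor that is cut in the Golgi when unfolded proteins accumulate, was at 88.4 and 92.0 CPM with VEN+CSA, 79.8 and 101.9 CPM with VEN, and 82.7 and 84.0 CPM with CSA. The combination libraries lay inside the VEN range and just above CSA. Its log2 fold change with VEN+CSA was −0.01 against VEN (95% interval −0.44 to 0.42) and 0.11 against CSA (−0.31 to 0.54). ATF6B (chr6:32115264-32128253), a weaker activator, was at 160.8 and 199 CPM with VEN+CSA, 159.7 and 132 CPM with VEN, and 131 and 179 CPM with CSA. Its replicates differed as much as its groups, with log2 fold changes of 0.30 against VEN (SE 0.23) and 0.21 against CSA (SE 0.23).

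XBP1 (chr22:28794555-28800597) had 188 and 183 CPM with VEN+CSA, 176 and 142 CPM with VEN, and 188 and 190.5 CPM with CSA. VEN replicate 2 was again the lowest library. The log2 fold change with VEN+CSA was 0.22 against VEN (SE 0.17, adjusted p = 0.637 by edgeR; 0.08 without VEN replicate 2) and −0.03 against CSA (95% interval −0.44 to 0.38). Without VEN replicate 1, the value against VEN was 0.39 with adjusted p = 0.0456. ERN1 (chr17:64039142-64130819) was at 40.8 and 41.6 CPM with VEN+CSA, 35.2 and 39.7 CPM with VEN, and 42.9 and 42.6 CPM with CSA, with log2 fold changes of 0.14 against VEN (SE 0.16) and −0.05 against CSA (SE 0.16). ERN2, the gut form of IRE1, had 0 counts in all 6 libraries.

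Neither of the proteases that free these factors passed the test in any comparison. MBTPS1 (chr16:84053761-84116906) was at 89.0 and 83.7 CPM with VEN+CSA, 80.6 and 81.4 CPM with VEN, and 81.3 and 81.1 CPM with CSA, with both VEN+CSA values above the other 4. Its log2 fold change was 0.09 in both comparisons, and its 95% interval was −0.26 to 0.44 in each. MBTPS2 (chrX:21839636-21885424) was at 22.6 and 19.7 CPM with VEN+CSA, 19.5 and 20.4 CPM with VEN, and 20.5 and 16.1 CPM with CSA, and its groups overlapped in both comparisons. For MBTPS2 the intervals were −0.41 to 0.58 against VEN and −0.28 to 0.70 against CSA.

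None of the 8 tested members other than CREB3L2 passed edgeR's test at an adjusted p under 0.05 in any comparison, and the share of all 12690 genes that did was 0% in each. At an unadjusted p under 0.05 these 8 also numbered 0 in every comparison, where 5.33% of all genes were higher and 5.48% lower with VEN+CSA against VEN, 1.95% and 1.69% against CSA, and 2.34% and 2.46% with VEN against CSA. DESeq2 called none of these 8, against 2.45%, 0.473% and 0.496% of all genes, and edgeR without VEN replicate 2 called none, against 0.379%, 0.185% and 0% of all genes. Against VEN, 5 of the 8 were higher in both VEN+CSA libraries than in both VEN libraries and 0 lower, where 19.2% and 18.9% of all genes did so; their median log2 fold change was 0.17, and 0.11 without VEN replicate 2, beside −0.0083 and 0.0060 for all genes. Against CSA, 2 were higher and 3 lower in this sense, near the shares of all genes, 23.5% and 23.7%. With VEN against CSA, 0 were higher and 4 lower, where 20.8% and 19.9% of all genes were, with a median of −0.14, and −0.07 without VEN replicate 2. In that comparison CREB3, CREB3L4 and XBP1 had log2 fold changes of −0.71, −0.51 and −0.25, with adjusted p of 0.633 each by edgeR. Without VEN replicate 2 these values were −0.19, −0.081 and −0.11. They passed only without VEN replicate 1 (−1.58, −1.18 and −0.42, adjusted p 0.0165, 0.0173 and 0.0332), where 33.8% of all genes did.

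**Figure D3:**
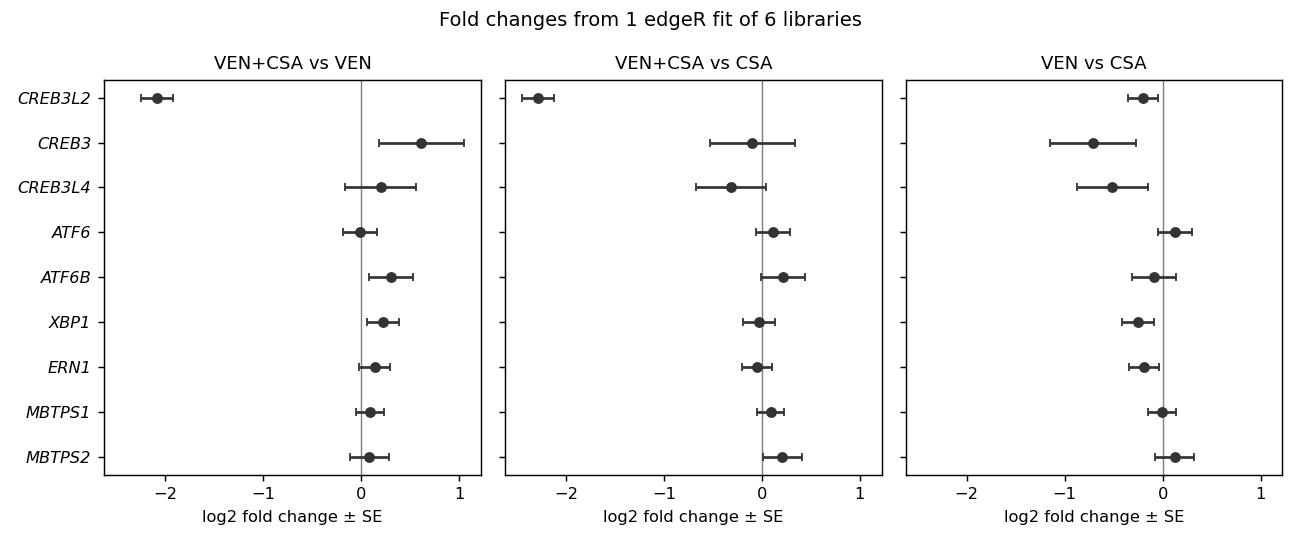
Log2 fold changes with their standard errors for the 9 tested members in the 3 comparisons, from a single fit of 6 libraries. CREB3L2 stands at −2.09 and −2.29 in the comparisons with VEN+CSA, and the other 8 lie between −0.71 and 0.61. CREB3L2 was picked by its level with VEN+CSA, so its error bars there carry no test.

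Ordered by RPKM, XBP1 and ATF6B were highest in every group, at 61.2 and 49.6 with VEN+CSA, 52.5 and 40.2 with VEN, and 62.5 and 42.7 with CSA. CREB3L2, picked for its low level with VEN+CSA, held place 8 of 10 there (3.01 ± 0.018 RPKM, SD, n = 2). It was just under CREB3L4 (3.08 ± 0.0072) and above MBTPS2 (2.37 ± 0.23). It held place 3 with VEN (12.8 ± 1.2), where its range overlapped that of ATF6 (11.5 ± 2.0), and place 3 with CSA (14.7 ± 1.1), where it did not overlap ATF6 (10.6 ± 0.11). MBTPS1 and CREB3 were neighbours whose ranges overlapped with VEN+CSA, and ERN1 and CREB3L4 overlapped with VEN and with CSA. With VEN the low values of CREB3 and CREB3L4 in replicate 2 also made CREB3 overlap ERN1, and CREB3L4 overlap MBTPS2.

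The 8 genes whose levels followed CREB3L2 most closely, by root mean square difference of centred log2 CPM over the 6 libraries among 9874 genes, were UBE2Z (0.29), MDM2 (0.34), ZBED6 (0.38), ZDHHC20 (0.38), LDHA (0.40), YIPF6 (0.40), SLC6A8 (0.41) and RASAL2 (0.42). UBE2Z, a ubiquitin-conjugating enzyme, was at 31.6 and 33.2 CPM with VEN+CSA, 105 and 77.0 CPM with VEN, and 112 and 108 CPM with CSA. MDM2, the ubiquitin ligase that degrades p53, was at 12.5 and 14.6 CPM with VEN+CSA, 64.2 and 28.7 CPM with VEN, and 58.8 and 57.9 CPM with CSA. LDHA, lactate dehydrogenase A, was at 277 and 232 CPM with VEN+CSA, 739 and 639 CPM with VEN, and 668 and 636 CPM with CSA. Both were lowest in the VEN+CSA libraries, and MDM2 was also lower in VEN replicate 2 than in the other single-drug libraries. ZDHHC20, a palmitoyltransferase, was at 21.7 and 24.0 CPM with VEN+CSA, 148.5 and 130.5 CPM with VEN, and 122 and 78.9 CPM with CSA. YIPF6, a Golgi membrane protein, was at 9.45 and 9.52 CPM with VEN+CSA, 26.4 and 42.8 CPM with VEN, and 29.1 and 26.8 CPM with CSA. All 8 were lower in both VEN+CSA libraries than in any other library, as their likeness to CREB3L2 requires. A CRE was found in 1 of the 8, LDHA, 51 bases before a start. The other tested members differed from the CREB3L2 profile by 1.06 (ERN1) to 1.27 (CREB3).

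**Figure D4:**
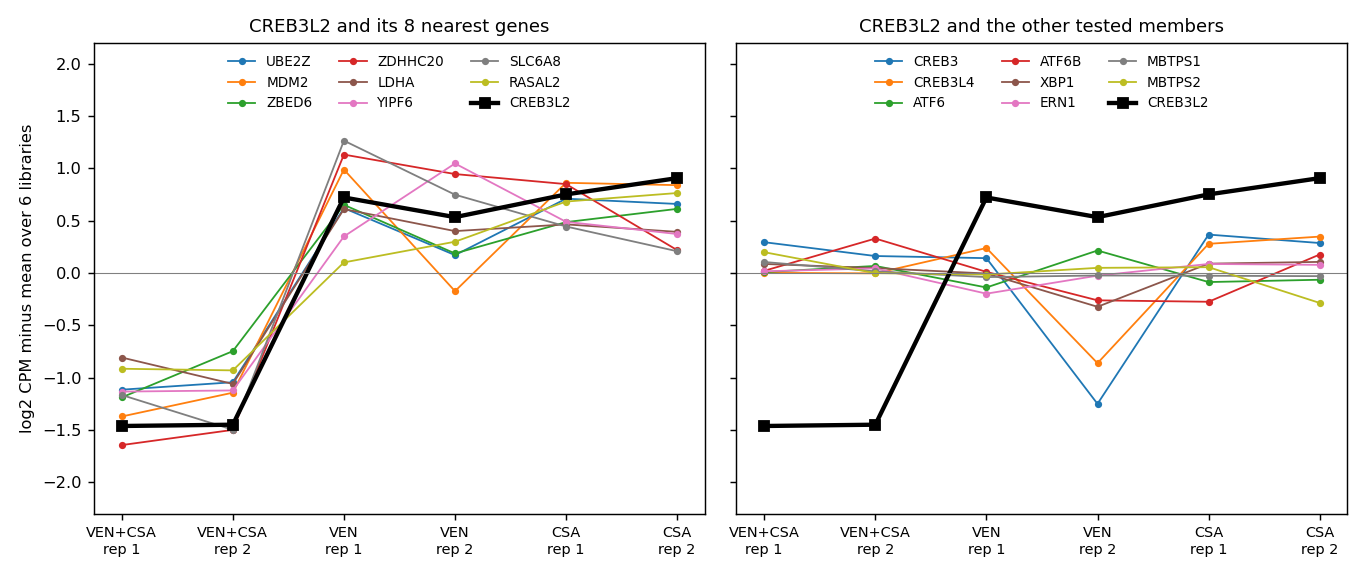
Centred log2 CPM over the 6 libraries for CREB3L2 (black squares) with its 8 nearest genes on the left and with the other 8 tested members on the right. The nearest genes dip in both VEN+CSA libraries, the other members stay near 0 there, and CREB3 and CREB3L4 dip in VEN replicate 2.

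Of 29 target genes of XBP1 and ATF6, most had higher averages with VEN+CSA: 20 were above 0 and 9 below against VEN (median log2 fold change 0.20, 0.26 without VEN replicate 2), and 23 and 6 against CSA (median 0.16), beside medians of −0.0083 and −0.0020 over all genes. No target passed an adjusted p under 0.05 by edgeR; at an unadjusted p under 0.05, 4 were higher and 0 lower against VEN, and 2 higher and 1 lower against CSA, where the shares of all genes were 5.33% and 5.48% against VEN and 1.95% and 1.69% against CSA. In 13 targets both VEN+CSA libraries were above both VEN libraries and in 1 below, where 19.2% and 18.9% of all genes were. Against CSA these counts were 21 and 2, where the shares of all genes were 23.5% and 23.7%. The list was chosen with earlier results of these data known. DNAJB9, an ER co-chaperone, was at 18.6 and 19.8 CPM with VEN+CSA, 9.22 and 7.74 CPM with VEN, and 12.9 and 13.6 CPM with CSA. Of the 29 targets it was the only one called by DESeq2 (against VEN, adjusted p = 0.000202), which called 2.45% of all genes there. Its log2 fold changes were 1.18 against VEN (SE 0.19) and 0.54 against CSA (SE 0.19). HYOU1, an ER chaperone, was at 530 and 600.4 CPM with VEN+CSA, 459 and 363 CPM with VEN, and 418 and 401 CPM with CSA. SEC61A1, the pore of the ER translocon, went the other way, at 347 and 365 CPM with VEN+CSA, 481 and 409 CPM with VEN, and 572 and 540.3 CPM with CSA (log2 fold change −0.64 against CSA, SE 0.16). EDEM1 and SEC61B had log2 fold changes of 0.36 and 0.75 against VEN (SE 0.14 and 0.30; 0.37 and 0.46 without VEN replicate 2), and DERL2 one of 0.39 against CSA (SE 0.16). With VEN against CSA, 11 targets were above 0 and 18 below (median −0.03), and DNAJB9 had −0.64 (SE 0.19).

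Genes of the carriers that take proteins from the ER to the Golgi include known targets of CREB3 family factors. Of 28, 27 were tested; 17 were above 0 and 10 below with VEN+CSA against VEN (median 0.08, 0.14 without VEN replicate 2), and 20 and 7 against CSA (median 0.10). At an unadjusted p under 0.05, 5 were higher and 0 lower against VEN, and 2 and 0 against CSA, where 5.33% and 5.48% of all genes were against VEN and 1.95% and 1.69% against CSA; none passed by edgeR's adjusted p. The medians over all genes were −0.0083 and −0.0020. SEC23A, a coat subunit and a target of CREB3L2 in mouse cartilage, was named after its values were seen: it was at 38.6 and 36.6 CPM with VEN+CSA, 38.7 and 36.9 CPM with VEN, and 39.4 and 37.5 CPM with CSA. Its log2 fold change was −0.01 against VEN and −0.03 against CSA (SE 0.15 each). Whether CREB3L2 acts on SEC23A in these cells was not tested. SEC24D, another coat subunit and also a known target of CREB3 family factors, was at 141 and 149 CPM with VEN+CSA. It was at 93.2 and 119 CPM with VEN, and 123 and 121 CPM with CSA. Its log2 fold change was 0.45 against VEN (SE 0.17, 0.64 without VEN replicate 2) and 0.25 against CSA (SE 0.17). SURF4, a cargo receptor, was at 558 and 532 CPM with VEN+CSA, 327 and 343 CPM with VEN, and 349.6 and 323 CPM with CSA. Both VEN+CSA libraries were above the other 4, with a log2 fold change of 0.70 in both comparisons (SE 0.14 each). DESeq2 called this (adjusted p = 0.00558 against VEN and 0.0189 against CSA) and edgeR did not (adjusted p = 0.227 and 0.720). SURF4 was the only 1 of the 27 that DESeq2 called in these comparisons, where it called 2.45% and 0.473% of all genes. ARFGAP3 had 0.57 against VEN (SE 0.16), GOLGA2 had 0.38 (SE 0.15), and SAR1B had 0.53 against CSA (SE 0.19).

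With VEN against CSA, 12 carrier genes were above 0 and 15 below (median −0.02), and SEC24A (0.83, SE 0.32), SEC31A (0.62, SE 0.28) and ARF4 (−0.68, SE 0.29) had the largest differences among those named by the rule. They rest on VEN replicate 2: SEC24A was at 53.3 and 101.6 CPM with VEN and 41.6 and 45.2 CPM with CSA, and the values without that library were 0.29, 0.17 and −0.36.

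**Figure D5:**
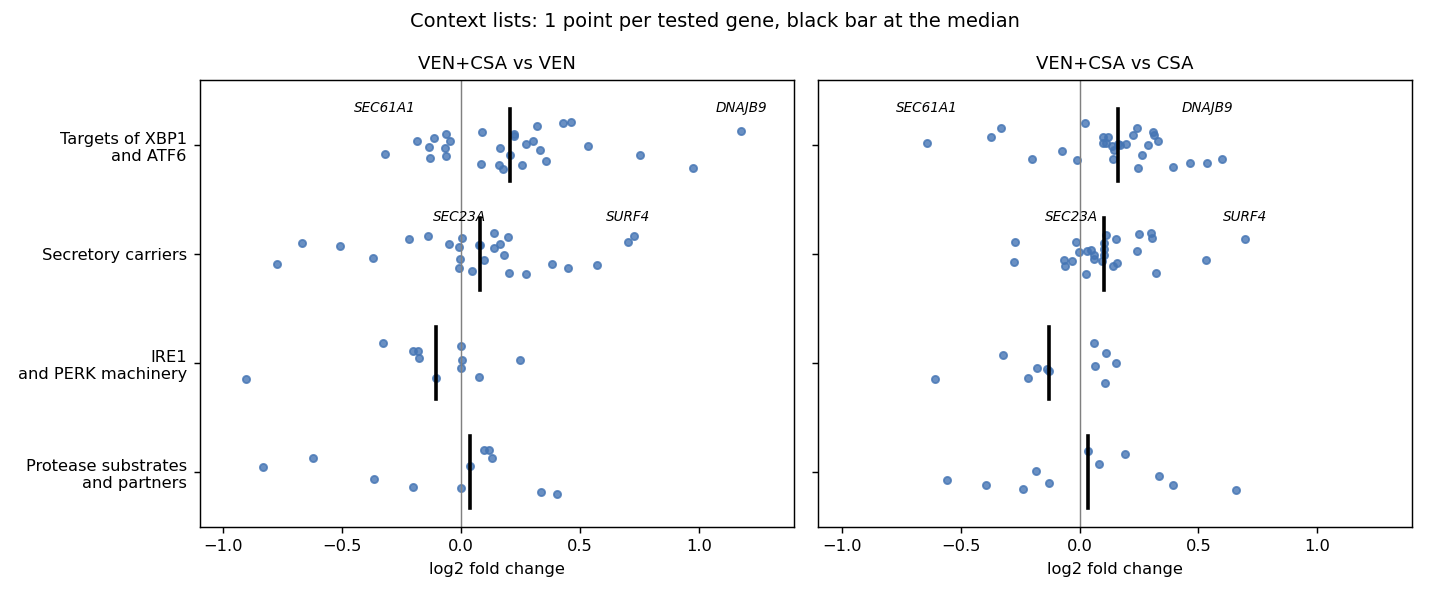
Log2 fold changes of the tested genes of 4 lists with VEN+CSA against VEN (left) and against CSA (right), 1 point per gene with the median as a black bar. Medians of the XBP1 and ATF6 targets are 0.20 and 0.16, SURF4 is at 0.70 in both panels, and SEC23A is at −0.01 and −0.03.

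Of 12 genes around IRE1 and the PERK kinase, 11 were tested. Of these, 3 were above 0 and 8 below against VEN (median −0.11, 0.0035 without VEN replicate 2), and 5 and 6 against CSA (median −0.13). At an unadjusted p under 0.05 they numbered 0 in every comparison. Among all genes, 5.33% were higher and 5.48% lower with VEN+CSA against VEN, and 1.95% and 1.69% against CSA. With VEN against CSA these shares were 2.34% and 2.46%, so 0 of 11 is not particular to this list. RTCB, the ligase that joins spliced XBP1 mRNA, was at 99.5 and 93.3 CPM with VEN+CSA, 105 and 87.7 CPM with VEN, and 109 and 102 CPM with CSA. EIF2AK3, which encodes PERK and was named after its values were seen, was at 24.1 and 23.9 CPM with VEN+CSA, 20.9 and 27.05 CPM with VEN, and 21.8 and 24.1 CPM with CSA. FAM98B, of the same ligase complex, had the smallest p in both comparisons with the combination, with log2 fold changes of −0.91 against VEN (SE 0.51) and −0.61 against CSA (SE 0.51). It was at 38.2 and 45.4 CPM with VEN+CSA, 37.9 and 118.9 CPM with VEN, and 58.5 and 68.6 CPM with CSA, so VEN replicate 2 alone was high, and without it the value against VEN turned to 0.14.

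Other substrates and partners of the site-1 and site-2 proteases gave 6 above 0 and 5 below in each comparison, over 11 genes (medians 0.04 against VEN, −0.04 without VEN replicate 2, and 0.04 against CSA). With VEN against CSA the median was 0.26, and −0.016 without VEN replicate 2. At an unadjusted p under 0.05, 0 passed with VEN+CSA against CSA, where 1.95% of all genes were higher and 1.69% lower. With VEN against CSA, 0 passed as well, where these shares were 2.34% and 2.46%. Against VEN, 0 were higher and 2 lower, where 5.33% and 5.48% of all genes were. The 2 were INSIG1, which retains the sterol sensor in the ER, at 43.4 and 46.6 CPM with VEN+CSA, 57.2 and 103 CPM with VEN, and 68.1 and 64.4 CPM with CSA, and GNPTAB, a site-1 substrate of lysosomal enzyme sorting, at 43.5 and 47.3 CPM with VEN+CSA, 59.8 and 80.035 CPM with VEN, and 52.6 and 50.4 CPM with CSA. Against VEN their log2 fold changes were −0.83 (SE 0.29) and −0.62 (SE 0.19), and −0.34 and −0.39 without VEN replicate 2. SREBF1, the sterol regulatory factor cut by both proteases, was at 110.9 and 89.2 CPM with VEN+CSA, 111 and 89.2 CPM with VEN, and 135 and 128 CPM with CSA (log2 fold change −0.39 with VEN+CSA against CSA, SE 0.19, adjusted p = 0.9999 by edgeR).

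Of 9 genes listed beside CREB3L2 on chromosome 7, 8 were in the table and 2 had enough counts to be tested. TRIM24, a chromatin reader, was at 68.5 and 82.7 CPM with VEN+CSA, 98.3 and 219 CPM with VEN, and 81.6 and 92.1 CPM with CSA, with log2 fold changes of −1.07 against VEN (SE 0.38, −0.38 without VEN replicate 2) and −0.20 against CSA (SE 0.38). KIAA1549 was at 1.5002 and 2.73 CPM with VEN+CSA, 2.44 and 4.61 CPM with VEN, and 2.48 and 2.13 CPM with CSA. DGKI and AKR1D1, the listed genes nearest to CREB3L2 on either side, had no count in any library.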

How the data were processed

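RNA-seq of 6 MV4-11 libraries was analysed. Gene counts in the deposited table were whole numbers per Ensembl gene, and STAR, RSEM, DESeq2 and hg38 are named, without roles or versions, per the submitters' processing notes. Counts of 1 to 20 were even in 64.8% to 66.7% of cases, against 49.0% to 51.0% of counts of 100 or more. The table has 2 columns that matched no sample and were not used. Of 20263 identifiers, 20148 had a symbol.

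The 6 libraries were fitted together by group with edgeR 4.0.16 in R 4.3.3 (filterByExpr, TMM, robust quasi-likelihood test, 3 residual degrees of freedom), with Benjamini-Hochberg adjustment over 12690 genes and a threshold of 0.05. SEs are the log2 fold change over the root of its F statistic. RPKM is TMM-scaled CPM per kilobase of GENCODE 29 exons. Counts of 12690 genes were also simulated for VEN+CSA against VEN, VEN+CSA against CSA and VEN against CSA. In these, 2-fold changes were recovered in 12%, 17% and 7% of cases and 4-fold changes in 91%, 93% and 86%. False calls numbered 7, 14 and 6. The data themselves gave 0 calls. Yet among genes with a mean of at least 5 CPM, 20 had a log2 fold change below −2.09 against VEN and 4 below −2.29 against CSA. Recovery in the data may be lower than in the simulated counts. The cut-offs are the CREB3L2 values and the fold changes are observed ones, so recovery in the data cannot be read from them. Alternatives were DESeq2 1.42.0, other filters and scalings, subsets of libraries, leaving out each library and a replicate block.

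The members and gene lists were chosen with earlier results of these data known. The text names all members, up to 4 tested genes of each list and comparison with the smallest unadjusted p, and the 8 genes nearest to CREB3L2 in profile among those with a mean of at least 5 CPM, and gives CREB3L3 and ERN2, relatives of members, by level only; SEC23A, EIF2AK3 and the untested chromosome 7 genes fall outside this rule.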

Additional observations from a re-analysis of the deposited data

How the results depend on the processing

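CREB3L2 was lower with VEN+CSA under every alternative run, a direction that its choice fixes, at −2.21 to −1.84 against VEN (−1.84 with library size alone as scaling) and −2.36 to −2.21 against CSA. Counts of genes called, 0 in each comparison, rose against VEN to 311 with DESeq2, 15 without the filter on low counts and 0 to 3426 when each library was left out, against CSA to 60, 4 and 0 to 24 (24 with only the 4 libraries compared), and for VEN against CSA to 63, 2 and 0 to 4385. The largest counts came with VEN replicate 2 as the only VEN library, 3426 and 4385, and without VEN replicate 2 they were 49 and 0. The labels do not pair the replicate numbers, and deviations of same-numbered libraries correlated at 0.25 (VEN+CSA and VEN), 0.16 (VEN+CSA and CSA) and 0.19 (VEN and CSA); the replicate block called 0 genes in each comparison, and 229, 72 and 16 without VEN replicate 2, an alternative chosen after seeing the data. Members that took another sign, none of them called with all 6 libraries, were as follows. Against VEN, CREB3L4 was −0.23 to 0.86 among left-out libraries (−0.23 without VEN replicate 2, and called without VEN replicate 1) and −0.25 with the replicate block added to this; ATF6 was 0.30 with library size alone, −0.18 to 0.18 among left-out libraries and 0.16 with that block; ATF6B was −0.019 with that block; and MBTPS2 was −0.018 to 0.19 among left-out libraries. For VEN against CSA, ATF6 was −0.24 with library size alone, −0.069 to 0.29 among left-out libraries and −0.051 with that block, ATF6B was −0.30 to 0.15 among them and 0.24 with that block, MBTPS1 was −0.017 to 0.0028 among them, and MBTPS2 was −0.20 with library size alone, −0.040 to 0.30 among left-out libraries and −0.043 with that block. Library size alone moved the median of all genes to 0.26, −0.04 and −0.31 in the 3 comparisons. Of 405 member alternatives, 18 took another sign and 6, all without VEN replicate 1, passed the threshold; the causes were not tested. CREB3L2 was left untested in the comparisons with VEN+CSA, under every alternative, because it was picked by its level there. On the simulated counts, with 2 libraries a group, most 2-fold changes were not recovered, and recovery in the data themselves is not known.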
